A study of Mus musculus with 6 samples.

Results

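The nuclear-encoded subunits of the mitochondrial oxidative phosphorylation system were examined in luminal progenitor cells of the mouse mammary gland with and without the receptor Robo1. Members were taken by symbol: genes named Nduf (followed by a, b, c, s, v or ab and a number), Uqcr, Cox4i to Cox8, Atp5 or Sdha to Sdhd. This gave 81 of the 18537 rows of the deposited table, with 80 distinct symbols, since Ndufa3 has 2 rows. By symbol, 38 rows belong to complex I, 4 to complex II, 8 to complex III, 14 to complex IV and 17 to complex V.

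Luminal progenitors (Lin-CD24loCD29+CD61+) were purified by flow cytometry from adult nulliparous Robo1+/+ and Robo1-/- mice. These came from crosses of Robo1+/- parents carrying the Robo1tm1Matl allele, and the paper describes its +/+ and -/- females as littermates or age-matched. Poly(A)+ RNA was sequenced in 6 libraries, 3 per genotype, each pooled from 2 animals, so an animal has no value of its own. The Robo1+/+ replicates gh03, gh09 and gh15 held 10494297, 17433868 and 14298652 reads. The Robo1-/- replicates gh06, gh12 and gh18 held 12183461, 15185303 and 9727191 reads. Values are reads per gene divided by a size factor of the library, called normalized values below, and 1 read was worth between 0.7838 (gh09) and 1.4592 (gh18).

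Oxidative phosphorylation couples the passage of electrons from NADH and succinate to oxygen, through complexes I to IV of the inner mitochondrial membrane, to the pumping of protons, and complex V, the ATP synthase, uses the returning protons to make ATP. Most subunits are encoded in the nucleus and imported, and a small set, all in complexes I, III, IV and V, is encoded by mitochondrial DNA. In the mammary gland mitochondrial mass and respiration are known to increase between the resting and the lactating state, to which luminal progenitors contribute secretory cells.

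Robo1, the targeted gene, was measured first as a check of the labels. Robo1+/+ libraries (gh03, gh09, gh15) gave normalized values of 289, 574 and 541, and Robo1-/- libraries (gh06, gh12, gh18) gave 130, 214 and 177. Values of other genes are listed in the same library order. All 3 Robo1-/- libraries were below all 3 Robo1+/+ libraries, and reads remained in each of them. The log2 fold change of value + 1, Robo1-/- minus Robo1+/+ as everywhere below, was −1.39 ± 0.36 (SE), with an adjusted p of 0.86 in limma over 13692 tested genes (unadjusted p 0.00621).

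The labelled cell type was checked with marker lists. The keratin Krt8, the most abundant of 8 luminal progenitor markers in each library but gh18, had values of 35984, 40523 and 41606 in Robo1+/+ against 43715, 42137 and 11182 in Robo1-/- libraries. Elf5 (2366 to 3901), Kit (4209 to 5644) and Cd14 (1605 to 4353) were present in every library. Genes of mature luminal cells were present too, with the prolactin receptor gene Prlr, the most abundant of 6, between 20097 and 37136. The 6 summed to 32076, 45546 and 34052 in Robo1+/+ against 53576, 45377 and 47935 in Robo1-/- libraries, and their part in the results below was not tested. Among them Pgr, the progesterone receptor gene, had 1721, 3003 and 3394, then 5481, 4124 and 3752, without overlap. Its log2 fold change was 0.76 ± 0.31 (unadjusted p 0.0442, adjusted p 0.86 in limma). It was 0.87 without gh18 and 1.21 after the correction for GC content described below. Cited1, the 1 gene of the 6 with a negative log2 fold change (−1.01 ± 0.94), had 3557, 2702 and 3150, then 3240, 3954 and 286. Without gh18 it was at 0.2. Summed values of 7 basal markers were 555 to 1782, highest in gh03 and gh06, with Oxtr the most abundant over the 6 libraries together, though Acta2 was above it in gh03, gh15, gh06 and gh12. Of leukocyte markers Ptprc was at 0 in 4 libraries and Csf1r was the most abundant, with a sum of 15.6 to 35.6. Of endothelial markers Cdh5 was at 0 in 4 libraries, with a sum of 27.7 to 90.7, mostly from Pecam1. Fibroblast markers summed to 307 to 1039 (Dcn the most abundant, except in gh12), adipocyte markers to 19.0 to 63.8 (mostly Cidea), erythroid markers to 19.7 to 63.5 (mostly Alas2), and skeletal muscle markers to 4.38 to 24.2 (Mylpf the most abundant over the 6 libraries together), so muscle, whose tissue-specific subunits are part of this family, was near 0.

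Library gh18, of the Robo1-/- genotype, stood apart before any comparison of genotypes. Ndufb7, an accessory subunit of complex I, had normalized values of 412, 422 and 374 in Robo1+/+ libraries, 390 and 218 in gh06 and gh12, and 5.84 in gh18. Cox5a, a subunit of cytochrome c oxidase, had values of 1237, 985 and 1106 in Robo1+/+ libraries, 894 and 856 in gh06 and gh12, and 1976 in gh18. The same library thus held the lowest value of the first gene and the highest of the second. Across the 80 tested members log2(value + 1) in gh18, less the average over the remaining 5, ran from −5.70 for Ndufb7 to 0.97 for Cox5a. Library gh18 gave the lowest of the 6 values for 50 members (62.5%) and the highest for 17 (21.2%), against 38.3% and 36.2% of all tested genes.

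That difference was correlated with base composition. Across the 80 members it had a Spearman correlation of −0.71 with the GC content of the transcript and of −0.72 with GC at the last position of codons, but of −0.22 with GC at the other codon positions; members share each library, and genes are not independent replicates. Over the 12453 tested genes with a GC value the correlation with GC content was −0.81. Among members with GC content under 46% the median difference was 0.32 (12 members), and between 46% and 50% it was −0.02 (17 members). It was −0.22 between 50% and 54% (20 members), −1.74 between 54% and 57% (20 members) and −4.20 at 57% and above (11 members), where gh18 was the lowest library for all 11. The corresponding medians over all tested genes were 0.78, 0.37, −0.23, −1.08 and −2.02. Members lay below genes at large in each class except 50% to 54%, and by the widest margin in the richest class. After a curve of deviation on GC content was subtracted from each library, the correlation over members was −0.10. Then 24 members lay more than 1 below the other libraries, against 30 before (37.5%, against 25.2% of all tested genes before). The share of all tested genes after correction was not counted. The median over members was −0.41, against −0.58 before. Over genes at large it was 0.01, against −0.01 before. After correction Uqcr10 lay lowest at −3.97.

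**Figure D1:**
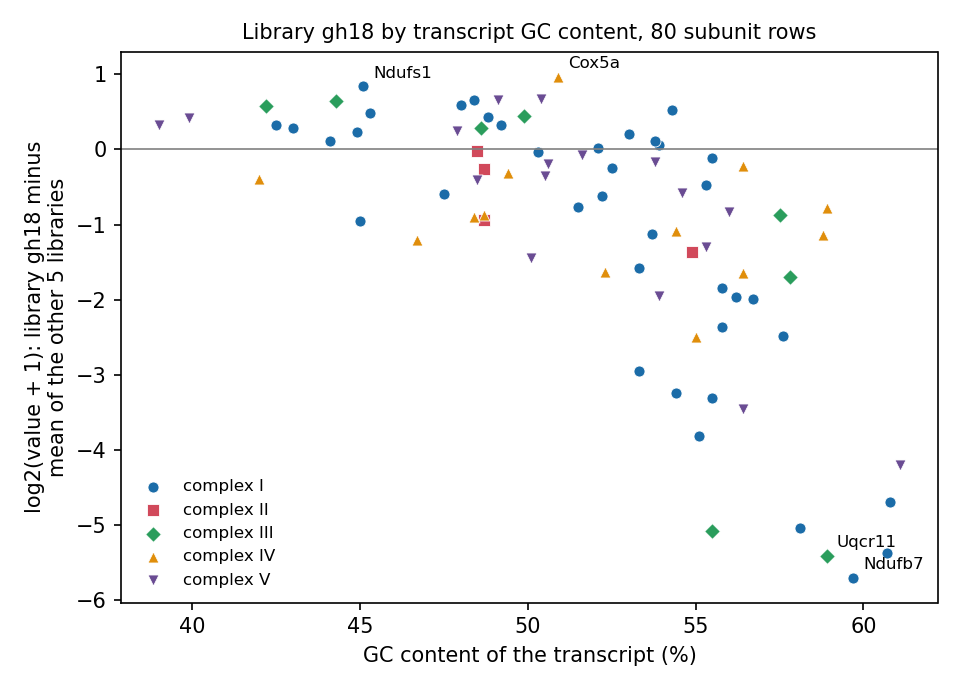
Each point is 1 of the 80 tested rows of the family, marked by complex. The horizontal axis is transcript GC content in percent and the vertical axis is log2(value + 1) in gh18 less the average over the remaining 5. The lowest point under 46% GC is at −0.95, and above 57% the points reach −5.70 (Ndufb7).

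The coding starts of the members farthest apart in gh18 show how much the transcripts differ, with G and C in capitals (150 bases of coding sequence from the start codon, GENCODE release M1 on NCBI37). Ndufb7 (chr8:86090570-86095525, plus strand, 60.9% GC over 414 coding bases) and Uqcr11 (chr10:79865742-79869575, minus strand, 60.2% over 171) were the lowest. Cox5a (chr9:57369039-57380231, plus strand, 51.9% over 441) and Ndufs1 (chr1:63190170-63223396, minus strand, 45.1% over 2184) were the highest. At the last position of codons GC content was 76.8% and 78.9% in the lowest pair, and 48.3% and 39.1% in the highest pair.
Ndufb7: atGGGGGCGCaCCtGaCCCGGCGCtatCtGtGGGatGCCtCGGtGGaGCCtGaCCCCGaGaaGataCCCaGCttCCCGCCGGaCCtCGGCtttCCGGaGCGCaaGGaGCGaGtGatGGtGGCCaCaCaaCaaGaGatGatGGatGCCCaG
Uqcr11: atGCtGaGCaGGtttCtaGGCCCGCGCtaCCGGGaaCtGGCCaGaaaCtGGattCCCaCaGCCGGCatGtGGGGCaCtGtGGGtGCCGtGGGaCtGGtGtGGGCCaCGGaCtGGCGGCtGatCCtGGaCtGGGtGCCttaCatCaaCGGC
Cox5a: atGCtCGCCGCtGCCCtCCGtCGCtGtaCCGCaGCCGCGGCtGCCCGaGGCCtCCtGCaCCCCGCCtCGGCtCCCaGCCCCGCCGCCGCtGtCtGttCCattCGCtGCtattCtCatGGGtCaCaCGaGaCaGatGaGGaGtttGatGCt
Ndufs1: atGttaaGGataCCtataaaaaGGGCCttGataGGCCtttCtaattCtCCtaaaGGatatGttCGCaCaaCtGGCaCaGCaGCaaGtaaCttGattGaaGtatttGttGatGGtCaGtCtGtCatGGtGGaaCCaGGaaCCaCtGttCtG
The stretch of Cox5a printed here is itself 66.7% GC, above the 64% of both members of the lowest pair, while the stretch of Ndufs1 is 42.0% GC.

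A second difference crossed the genotypes. Replicates gh03 (Robo1+/+) and gh06 (Robo1-/-) gave higher values of short transcripts than gh09, gh15 and gh12. Uqcrq, a small subunit of complex III on a transcript of 405 bases, had values of 257 and 231 in gh03 and gh06, against 63.5, 67.5 and 42.1 in gh09, gh15 and gh12, and 30.6 in gh18. Leaving gh18 aside, both libraries lay above the other 3 for 17 of 27 tested members under 600 bases, 12 of 23 between 600 and 1000 bases, and 5 of 30 above. Of all tested genes in those length classes, 46.1%, 23.5% and 10.8% did the same. Members are short, with a median of 754 bases against 2761 bases over the tested genes, and 42.5% of them followed this split against 12.5% of all tested genes. With 1 such library in each genotype, the split fell within both. No fit paired libraries across the genotypes, and the labels name no pairs. In order of library number (gh03 with gh06, gh09 with gh12, gh15 with gh18), Uqcrq and Cox6a1 were lower in each Robo1-/- library. So were many other members, among them Ndufa2, Sdhb, Uqcr11, Cox8a and Atp5d. Fewer members were higher in each, with Sdha and Atp5s among them. The shares of members and of all tested genes were not counted, and such pairing was not tested. The basal marker sums given above were highest in gh03 and gh06 too. Leaving gh18 aside, Acta2, Myh11, Oxtr and Cnn1 were highest in these libraries, and Krt5, Krt14 and Trp63 were not. Of fibroblast markers Col1a1, Col1a2, Col3a1 and Lum were highest there, and Dcn and Pdgfra were not. The part of such cells in the split was not tested.

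The question put to the family was whether the subunits differ between Robo1+/+ and Robo1-/- luminal progenitors. At an adjusted p under 0.05, limma called 0 of the 80 tested members and 0 of the 13692 tested genes (0%). At an unadjusted p under 0.05 it called 0 members in either direction, against 126 genes lower (0.92%) and 105 genes higher (0.767%) in Robo1-/- cells. On recovered whole reads edgeR and limma-voom also called 0 members at both thresholds, as did DESeq2 over 18537 genes, of which it called 1 at an adjusted p under 0.05. The smallest unadjusted limma p of a member was 0.108. Leaving out gh06, and no other single library, brought members under 0.05 in limma. Then 6 of the 80 tested members were lower (Cox6a1, Cox8a, Ndufa2, Ndufa7, Ndufb7 and Uqcr11), with an adjusted p of 0.55 for each. Of the 13692 tested genes, 667 were then lower and 212 higher. An exact permutation test of 3 against 3 libraries cannot give a p below 0.1.

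The median log2 fold change of the tested members was −0.17, against 0.00 for all tested genes, and 56 members were below 0 (70.0% against 49.8%). That shift depended on single libraries of both genotypes. Without gh18 the median was −0.04 and 50 members were below 0 (62.5% against 49.5%), and without the Robo1+/+ library gh03 it was −0.07 and 47 were below 0. Without gh06 it was −0.33. With all 6 libraries 12 of the 80 tested members had a log2 fold change below −1. That was a larger share than the 6.56% of tested genes, and gh18 was the lowest library for all 12. Without gh18 no member was below −1, and all 80 lay within 0.5 of 0, against 85.8% of tested genes. The genes in these shares were not matched to the members by level. In bulk RNA, fewer cells of a type and less RNA per cell cannot be told apart.

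Counted without a model, 7 of the 80 tested members (8.75%) had all 3 Robo1-/- values below all 3 Robo1+/+ values, against 4.58% of tested genes. They were Ndufa2, Ndufa11 and Ndufb8 of complex I, Sdhb, Uqcrc1, and Atp5g1 and Atp5o of complex V. In the other direction 2 members (2.5%), Sdha and Atp5s, did not overlap, against 4.83% of tested genes. With gh18 left out 10 members were below (12.5% against 10.1%) and 4 above (5.0% against 10.2%).

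**Figure D2:**
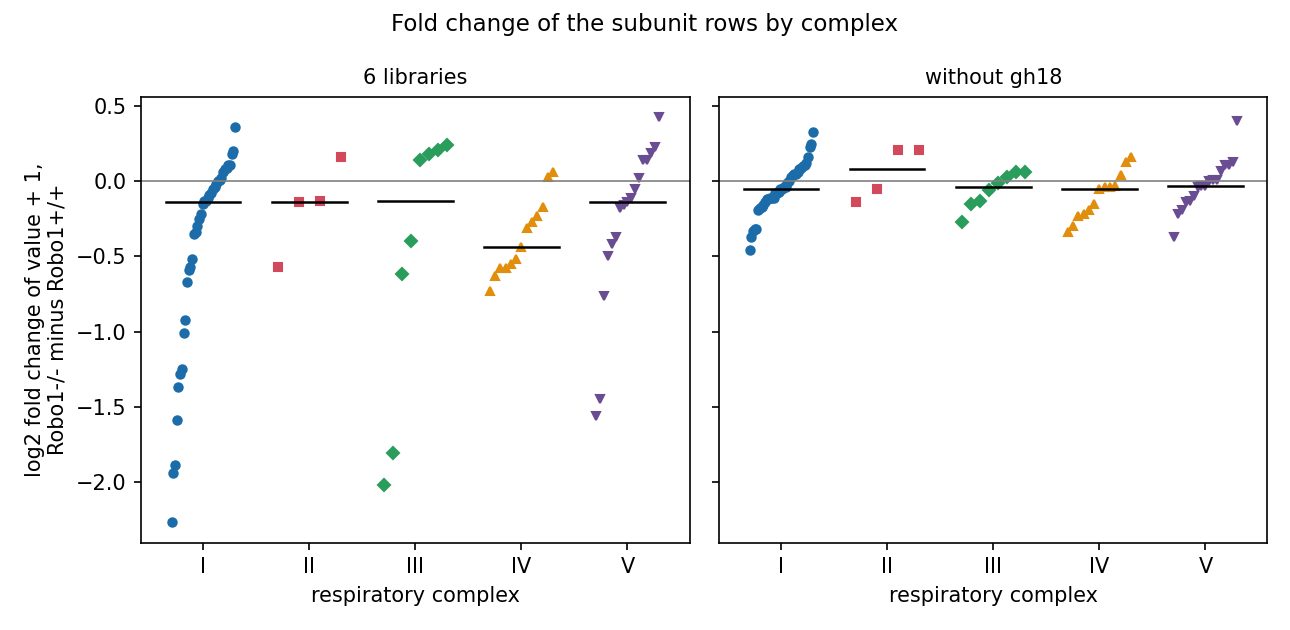
Each point is 1 tested row of the family, placed by complex. It gives the log2 fold change of value + 1, Robo1-/- minus Robo1+/+, over all 6 libraries (left) and without gh18 (right). Black lines are medians. The left points reach −2.27 in complex I, and on the right all 80 lie between −0.46 and 0.40.

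As a share of each library's reads, the 81 rows took 0.880% (gh03), 0.732% (gh09) and 0.724% (gh15) in Robo1+/+, and 0.745% (gh06), 0.730% (gh12) and 0.618% (gh18) in Robo1-/- cells. The genotype means were 0.779% ± 0.0876 and 0.698% ± 0.0694 (SD, n = 3), and they differed by about the spread within a genotype. The difference of −0.081 percentage points was −0.0305 without gh03 and −0.0412 without gh18. Complex V took the largest part, 0.344% ± 0.0376 in Robo1+/+ and 0.314% ± 0.0218 in Robo1-/- cells. Complex I followed with 0.182% ± 0.0230 and 0.160% ± 0.0203, complex IV with 0.128% ± 0.0180 and 0.102% ± 0.0277, complex III with 0.0762% ± 0.00789 and 0.0758% ± 0.00583, and complex II with 0.0487% ± 0.00159 and 0.0466% ± 0.00877. The ranges of the genotypes overlapped for each of the 5 complexes.

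**Figure D3:**
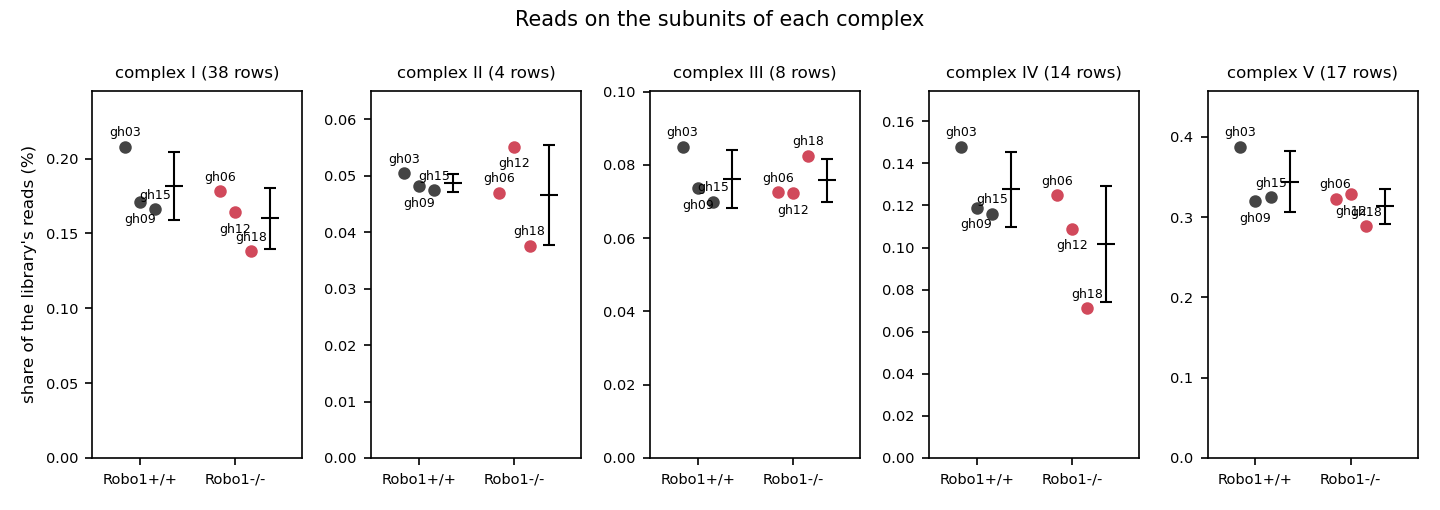
Each panel gives the percent of a library's reads that fell on the rows of 1 complex, with 1 named point per library (grey Robo1+/+, red Robo1-/-) and the mean ± SD of 3 libraries. Library gh03 is the highest in complexes I, III, IV and V, and gh18 the lowest of the 6 in complexes I, II, IV and V.

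Complex I, the NADH dehydrogenase, opens the chain. Its 38 rows had a median log2 fold change of −0.14 (−2.27 to 0.36), and −0.05 without gh18 (−0.46 to 0.33), with 27 and 24 rows below 0. The 7 core subunits, which carry the flavin and the iron-sulfur clusters, had a median of −0.34 with all libraries and −0.01 without gh18. Among them gh18 was the highest for some and the lowest for others. Ndufs1, which holds iron-sulfur clusters and has a GC content of 45.1%, had values of 1360, 1228 and 1240 in Robo1+/+ libraries, then 1301, 1436 and 2352 in gh06, gh12 and gh18. Ndufs7, which holds the cluster next to the ubiquinone site and has a GC content of 60.7%, had values of 274, 226 and 201, then 304, 148 and 4.38. Both proteins sit in the same arm of the complex, yet in gh18 one was 1.79-fold above and the other 41.8-fold below the geometric mean of value + 1 in the other 5 libraries. In the other 5 libraries neither genotype lay wholly above the other for Ndufs7.

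The 31 rows of accessory subunits of complex I, which surround the core, had a median log2 fold change of −0.13, and −0.05 without gh18. Ndufa2 (kgCluster11687), with the smallest p of complex I among members with a negative fold change, had values of 537, 437 and 441 in Robo1+/+ libraries, then 422, 313 and 54 in gh06, gh12 and gh18. The genotypes did not overlap, though gh06 lay close to the lowest Robo1+/+ library. The log2 fold change was −1.28 ± 0.73 (adjusted p 0.86), and −0.37 without gh18. Ndufs1, with the smallest p among those with a positive one, had 0.36 ± 0.27 (adjusted p 0.86), and 0.10 without gh18. Per kb of transcript, the scale on which levels of different genes can be set side by side, Ndufa4 and Ndufb9 had the highest levels of complex I, at 3559 ± 542 and 1466 ± 245 (SD, the 5 libraries other than gh18). Ndufa4, counted here by its symbol, is now placed with cytochrome c oxidase, and its values were 2213, 1615 and 1561 in Robo1+/+ against 1619, 1748 and 2040 in Robo1-/- libraries. Ndufa11, an accessory subunit of the membrane arm, had the lowest level, 157 ± 23.9 per kb, over an annotated transcript of 2661 bases. Its values of 492, 419 and 453 in Robo1+/+ against 410, 322 and 11.7 in Robo1-/- libraries did not overlap, with a log2 fold change of −1.94 ± 1.24 (adjusted p 0.86) that was −0.32 without gh18. Both rows of Ndufa3, another accessory subunit, varied alike: kgCluster21833 had 243, 137 and 103 in Robo1+/+ against 185, 194 and 45.2 in Robo1-/- libraries, and kgCluster21834 had 597, 303 and 297, then 452, 445 and 77.3.

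Complex II, succinate dehydrogenase, is the one respiratory complex with no mitochondrially encoded subunit, and it also works in the tricarboxylic acid cycle. Sdha, the flavoprotein (chr13:74459702-74487728 of NCBI37, kgCluster6539), had values of 3149, 3251 and 2924 in Robo1+/+ against 3255, 3974 and 3255 in Robo1-/- libraries. Every Robo1-/- value was above every Robo1+/+ value, although the margin at the closest pair was smaller than the spread within either genotype. Sdhb, the iron-sulfur subunit (chr4:140517118-140535108, kgCluster18267), had values of 902, 955 and 1033 in Robo1+/+ against 862, 879 and 357 in Robo1-/- libraries, so every Robo1-/- value was below. The log2 fold changes were 0.16 ± 0.19 for Sdha and −0.57 ± 0.37 for Sdhb, with an adjusted p of 0.86 for each, 0.21 and −0.14 without gh18, and 0.05 and −0.24 after GC correction. The difference between these genes was not tested.

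The membrane anchors of complex II, which bind heme and ubiquinone, overlapped between genotypes. Sdhc had values of 1310, 1100 and 1160 in Robo1+/+ against 1379, 1372 and 655 in Robo1-/- libraries, and Sdhd had 1384, 1283 and 1250, then 1097, 1447 and 1074. Their log2 fold changes were −0.14 ± 0.33 and −0.13 ± 0.21, and 0.21 and −0.05 without gh18. Sdhc turned positive once gh18 was left out, and gh06 and gh12 were then above all 3 Robo1+/+ libraries. Per kb the subunits, which occur in equal numbers in the complex, had levels of 1142 ± 136 (Sdha), 1004 ± 105 (Sdhd), 811 ± 60.5 (Sdhb) and 399 ± 40.1 (Sdhc). The lower level of Sdhc goes with an annotated transcript of 3171 bases, and which 3′ end these cells use was not tested.

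Complex III passes electrons from ubiquinol to cytochrome c. Its 8 rows had a median log2 fold change of −0.13 (−2.02 to 0.24), and −0.04 without gh18 (−0.27 to 0.06). Uqcrc1, a core protein of the matrix side, had values of 1962, 2124 and 2010 in Robo1+/+ against 1795, 1920 and 1068 in Robo1-/- libraries. The genotypes did not overlap, and gh18 set most of the difference: the log2 fold change was −0.40 ± 0.27 (adjusted p 0.86), −0.13 without gh18 and 0.19 after GC correction, which turned its sign. Uqcrb, a small subunit near the quinone site, had the smallest p with a positive fold change, 0.24 ± 0.26 (adjusted p 0.86), from values of 1332, 1021 and 899 in Robo1+/+ against 1071, 1157 and 1624 in Robo1-/- libraries. These overlapped, and the log2 fold change was 0.06 without gh18 and −0.06 after GC correction.

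The small accessory subunits of complex III held some of the widest swings of the family. Uqcr10 had values of 567, 325 and 333 in Robo1+/+ against 415, 306 and 10.2 in Robo1-/- libraries. Uqcr11 had 489, 238 and 264, then 448, 149 and 5.84. In both, gh03 and gh06 were the highest libraries and gh18 the lowest. Their log2 fold changes of −1.81 ± 1.30 and −2.02 ± 1.41 became −0.15 and −0.27 without gh18, and −1.42 and −1.30 after GC correction. Uqcrh, the hinge protein that helps bind cytochrome c, was highest per kb in the complex at 3382 ± 426 (values of 2169, 1765 and 1582 in Robo1+/+ against 1999, 1734 and 2516 in Robo1-/- libraries), followed by Uqcrb at 2049 ± 302. Uqcrq was lowest at 327 ± 254, a spread nearly as large as its mean. Its log2 fold change was −0.62 ± 0.88 (adjusted p 0.87), 0.00 after GC correction and 0.12 after GC and length correction. Leaving out 1 library gave −0.06 (gh18), 0.04 (gh03), −0.29 (gh12), −0.92 (gh15), −0.96 (gh09) and −1.5 (gh06). Without gh03 and gh06 it was −0.85.

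Complex IV, cytochrome c oxidase, reduces oxygen. Of its 14 rows 13 were tested, with a median log2 fold change of −0.44 (−0.73 to 0.06), the lowest of the 5 complexes, and 11 rows below 0. Without gh18 the median was −0.05 (−0.34 to 0.16). The difference between complexes was not tested. Cox6a1, the ubiquitous form of subunit VIa, had the smallest p of any member: its values were 1340, 1041 and 1089 in Robo1+/+ against 1141, 759 and 477 in Robo1-/- libraries. The genotypes overlapped through gh06, and the log2 fold change was −0.63 ± 0.34 (unadjusted p 0.108, adjusted p 0.86), −0.30 without gh18 and 0.09 after GC correction. Cox5a, with the smallest p on the positive side, had 0.06 ± 0.35 (adjusted p 0.96); without gh18 it was −0.34, and gh06 and gh12 were both below all 3 Robo1+/+ libraries. Its log2 fold change was also below 0, at −0.03, without gh09. It was above 0 without gh03 (0.14), gh15 (0.06), gh06 (0.24) or gh12 (0.27).

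Several subunits of complex IV have isoforms, and these cells used the ubiquitous ones. Cox4i1, the common form of subunit IV, had values of 4139, 4417 and 3619 in Robo1+/+ against 4192, 3665 and 1280 in Robo1-/- libraries. Its lung form, Cox4i2, which is known to respond to low oxygen, had 2.54, 5.49 and 3.75, then 3.45, 6.41 and 1.46, and was the 1 member that did not pass the filter on low reads. Per kb, Cox4i1 made up 99.8% to 99.9% of the pair in each of the 6 libraries. Cox6b1 made up 96.0% to 98.8% of its pair with Cox6b2, a form known from testis (34.5 to 68.5 in Robo1+/+, 42.6, 55.9 and 7.30 in gh06, gh12 and gh18). Cox7a2 made up 88.7% to 95.1% of its pair with Cox7a1, the heart and muscle form, whose values were 35.6, 68.2 and 53.5 in Robo1+/+ against 40.3, 45.8 and 21.9 in Robo1-/- libraries. The ranges of these shares overlapped between genotypes in all 3 pairs. Cox6a2, Cox7b2, Cox8b and Cox8c fit the symbol rule but were not among the 81 rows it gave. Ndufa4l2 lies outside the rule. None of these was analysed here.

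The other isoform families of complex IV gave no call. Cox6b1 had values of 2266, 1546 and 1525 in Robo1+/+ against 1838, 1566 and 557 in Robo1-/- libraries, and Cox7a2 had 1433, 1114 and 1020, then 1152, 1277 and 636. Cox8a, the form of subunit VIII outside heart and muscle, had 1365, 1022 and 1175, then 1237, 824 and 645. In each of these 3 genes gh03 was the highest library and gh18 the lowest. Their log2 fold changes were −0.58 ± 0.46, −0.27 ± 0.32 and −0.44 ± 0.29, and −0.04, 0.04 and −0.22 without gh18. The log2 fold change of Cox8a was 0.28 after GC correction. Cox7b, on the X chromosome, had −0.17 ± 0.25 from values of 1649, 1143 and 1032, then 1223, 1200 and 934, which was −0.04 without gh18, 0.03 without gh03 and −0.47 after GC correction. Cox7a2l, which links complexes III and IV into a supercomplex, had 0.03 ± 0.21 from values of 2219, 2147 and 1964, then 2489, 2240 and 1776. The highest levels of complex IV per kb were those of Cox4i1 (5900 ± 514) and Cox6b1 (3462 ± 626), and among tested rows the lowest was Cox6b2 (86.5 ± 25.9).

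Complex V, the ATP synthase, held the most abundant members. Its 17 rows had a median log2 fold change of −0.14 (−1.56 to 0.43), and −0.03 without gh18 (−0.37 to 0.40). Atp5b, the catalytic beta subunit of the F1 head, had values of 15762, 13082 and 12673 in Robo1+/+ against 13383, 13687 and 12938 in Robo1-/- libraries. Atp5a1, the alpha subunit, had 11364, 10595 and 10629, then 10632, 11218 and 8508. These genes of middling GC content (51.6% and 50.5%) were among the steadiest, with log2 fold changes of −0.05 ± 0.19 and −0.11 ± 0.20 (adjusted p 0.95 and 0.89). Per kb, Atp5b (7159 ± 628) and Atp5a1 (4406 ± 151), which are present in several copies in each head, stood above the single-copy subunits Atp5c1 (2410), Atp5e (1643) and Atp5d (1187). Atp5d, the delta subunit and the member with the highest GC content (61.1%), had 1289, 1044 and 1140, then 1207, 844 and 58.4. Its log2(value + 1) in gh18, less the average over the remaining 5, was −4.2, and −1.77 after GC correction.

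The membrane rotor of the ATP synthase is a ring of subunit c, which Atp5g1, Atp5g2 and Atp5g3 encode with the same mature protein and different import sequences. Atp5g1, with the smallest p of complex V on the negative side, had values of 1620, 1100 and 1235 in Robo1+/+ against 1020, 989 and 107 in Robo1-/- libraries. The genotypes did not overlap, with a log2 fold change of −1.45 ± 0.84 (adjusted p 0.86), −0.97 after GC correction and −0.37 without gh18. Atp5g2 had 2710, 2490 and 2441, then 2583, 2548 and 1037 (log2 fold change −0.42 ± 0.37, and 0.01 without gh18), and Atp5g3 had 3098, 2361 and 2596, then 2553, 2437 and 4121 (0.14 ± 0.26, and −0.10 without gh18). Both signs thus changed when gh18 was left out. The proportions of the 3 genes differed most in gh18. Per kb, Atp5g1 gave 20.5% to 24.2% of the sum in Robo1+/+ libraries, 18.4% in both gh06 and gh12, and 2.37% in gh18. Atp5g2 gave 37.2% to 43.7% in the other 5 libraries and 21.2% in gh18, and Atp5g3 gave 36.7% to 38.6% in the other 5 libraries and 76.4% in gh18. GC content was 56.4% in Atp5g1, 55.3% in Atp5g2 and 50.4% in Atp5g3. The summed level per kb was 11245, 9001 and 9481 in Robo1+/+ against 9278, 9011 and 7553 in Robo1-/- libraries. These genes are uncertain in another way too, since 78.7% of the 75-base sequences of Atp5g1 and 100% of those of Atp5g2 also occur elsewhere in the genome.

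Among the remaining rows of complex V, Atp5o, the stalk subunit that confers oligomycin sensitivity, had values of 1989, 1690 and 1756 in Robo1+/+ against 1630, 1667 and 1548 in Robo1-/- libraries. The genotypes did not overlap, by a margin smaller than the spread in Robo1+/+ cells, and the log2 fold change was −0.16 ± 0.18, which GC correction turned to 0.06. Atp5s, which carries an ATP5 name but is a coupling and assembly factor and no subunit, had 107, 114 and 120, then 132, 171 and 159. All 3 Robo1-/- values were above, and it had the highest log2 fold change of the 80 members, 0.43 ± 0.27 (adjusted p 0.86), which was 0.40 without gh18 and 0.06 after GC correction. It was also the lowest member of the complex per kb, at 86.9 ± 17.1. Atp5sl, likewise counted in complex V by its name, is no subunit either. It had 332, 346 and 307, then 380, 337 and 190, with a log2 fold change of −0.18 ± 0.32, 0.13 without gh18 and 0.26 after GC correction.

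Copies elsewhere in the genome bear on more of the family. Of 80 member transcripts, 49 had no 75-base sequence outside their own gene in NCBI37, and 7 had at least 50% of theirs elsewhere. Besides Atp5g1 and Atp5g2 these were Atp5l (85.8%), Ndufs5 (73.4%), Cox7c (70.0%), Cox5b (50.6%) and Atp5h (50.3%). How reads with several positions were counted is not given in the sources used here, so the values of these 7 are less certain than those of the 49.

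The promoters of the family were searched for the motifs of factors known to drive respiratory genes. RefSeq windows of 300 bases (250 before the start and 50 after it, GRCm38.p6) were found for 68 of the 80 symbols, in 74 windows. On either strand, the NRF1 letters GCGCANGC were present in 25 of these windows (33.8%, against 9.95% of all 32851 windows), and the ETS letters CCGGAAG, which GABP binds, in 16 (21.6% against 8.86%). The letters AAGGTCA of the estrogen-related receptors were in 8 (10.8% against 4.72%) and those of YY1, AAGATGGCG, in 9 (12.2% against 1.4%). Windows of members are richer in GC than windows at large, with a median of 58.0% against 52.7%, and the shares were not adjusted for that. A match is a run of letters and not a binding site. As examples, 3 windows with several matches within the 250 bases before the start are printed for those bases, with matches in capitals: Atp5l (chr9:44920743-44920992, minus strand; NRF1, ETS and estrogen-related receptor), Cox6a1 (chr5:115348959-115349208, minus strand; NRF1 at 3 places, of which a pair overlaps, and ETS) and Ndufb4 (chr16:37654369-37654618, minus strand; NRF1 at 3 places and the estrogen-related receptor).
Atp5l: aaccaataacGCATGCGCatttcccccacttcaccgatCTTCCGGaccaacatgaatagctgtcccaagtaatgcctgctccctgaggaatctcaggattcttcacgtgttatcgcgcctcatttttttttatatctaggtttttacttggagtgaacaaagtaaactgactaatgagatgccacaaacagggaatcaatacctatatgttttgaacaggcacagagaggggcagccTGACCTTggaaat
Cox6a1: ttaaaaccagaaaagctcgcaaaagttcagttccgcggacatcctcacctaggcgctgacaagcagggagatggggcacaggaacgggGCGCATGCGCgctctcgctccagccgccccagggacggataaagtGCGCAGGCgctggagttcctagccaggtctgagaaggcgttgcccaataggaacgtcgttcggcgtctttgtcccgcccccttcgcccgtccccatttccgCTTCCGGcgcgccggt
Ndufb4: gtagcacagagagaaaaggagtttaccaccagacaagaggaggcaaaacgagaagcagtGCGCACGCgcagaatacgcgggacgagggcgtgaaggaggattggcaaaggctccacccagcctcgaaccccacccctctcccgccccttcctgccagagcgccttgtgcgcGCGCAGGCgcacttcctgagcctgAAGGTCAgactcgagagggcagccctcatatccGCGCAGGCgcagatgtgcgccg
The log2 fold changes of these 3 genes were −0.14, −0.63 and −0.25, and 0.00, −0.30 and −0.05 without gh18.

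The regulators that act on such promoters were read from a list of 20 genes of mitochondrial biogenesis, of which 18 were tested. At an unadjusted p under 0.05, 2 were lower and 0 higher in Robo1-/- cells in limma, against 0.92% and 0.767% of tested genes, and 0 passed at an adjusted p under 0.05. Esrrb, an orphan nuclear receptor of the estrogen-related family, had values of 318, 132 and 84.4 in Robo1+/+ against 67.9, 13.7 and 39.4 in Robo1-/- libraries. The genotypes did not overlap, with a log2 fold change of −2.15 ± 0.71 (unadjusted p 0.0186, adjusted p 0.86) that was −2.27 without gh18. Pprc1, a coactivator related to PGC-1, had 2303, 2362 and 2124, then 1855, 1251 and 1042. Its log2 fold change was −0.75 ± 0.26 (unadjusted p 0.0216, adjusted p 0.86), −0.57 without gh18 and −0.33 after GC correction.

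The other regulators fixed by name did not pass the unadjusted threshold in limma. Esrrg had values of 256, 529 and 346 in Robo1+/+ against 369, 486 and 541 in Robo1-/- libraries, and Esrra had 235, 179 and 135, then 229, 122 and 11.7. The log2 fold change of Esrra was −1.34 ± 1.01, −0.09 without gh18 and −0.40 after GC correction. The coactivators Ppargc1a (47.1 to 99.4 in Robo1+/+, 51.8 to 97.8 in Robo1-/-) and Ppargc1b (17.2 to 53.4 and 8.75 to 34.5) were low. Nrf1 had 316, 332 and 303, then 290, 248 and 181, without overlap, and a log2 fold change of −0.43 ± 0.27 (adjusted p 0.86), which was −0.24 without gh18. Gabpa, the DNA-binding part of GABP, had 0.30 ± 0.32 and Tfam, which packages and transcribes mitochondrial DNA, had 0.29 ± 0.31. Both were set by gh18, since without it they were −0.03 and 0.00. Yy1, which was not fixed by name, had values of 1126, 1048 and 1062 in Robo1+/+ against 1081, 1808 and 1945 in Robo1-/- libraries. The genotypes overlapped through gh06. Its log2 fold change was 0.53 ± 0.27 (unadjusted p 0.0872, adjusted p 0.86 in limma), 0.37 without gh18 and 0.7 after GC correction.

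Other genes that serve the complexes gave no call at an unadjusted p under 0.05. None of the tested assembly factors passed: 9 of complex I, 2 of complex II, 3 of complex III, 10 of complex IV and 4 of complex V. The same held for 16 electron carriers and enzymes of ubiquinone synthesis, 20 of the tricarboxylic acid cycle and pyruvate entry, 17 rows of glycolysis and 7 carriers of adenine nucleotides and phosphate. Of the subunits encoded by mitochondrial DNA, mt-Nd4 alone was analysed: its values were 29870, 18825 and 26058 in Robo1+/+ against 20183, 22842 and 46400 in Robo1-/- libraries. Cyc1, the cytochrome c1 of complex III that the symbol rule does not take in, had a log2 fold change of −0.54 ± 0.29, −0.26 without gh18 and 0.13 after GC correction. Summed glycolytic values were 59767, 58878 and 60434 in Robo1+/+, 58609 and 72535 in gh06 and gh12, and 24485 in gh18. The other lists were not low there in the same way. In gh18 the tricarboxylic acid list summed to 37642 (36386 to 39963 in the others) and the nucleotide and phosphate carriers to 24800 (24113 to 29371). Electron carriers and ubiquinone enzymes summed to 13913 (11043 to 11967). Sums of assembly factors were highest in gh18 for complexes I to IV and lowest for complex V.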

How the data were processed

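The signal that the authors deposited, reads per gene divided by a size factor, was used as it stands. The submitters name TopHat, Bowtie, SAMtools and DESeq on mm9 without versions; the paper names DESeq2 and a bowtie2 step that removed reads of repeats. The counting tool, the use of strand and the rule for reads with several positions are not given. Log2(value + 1) of genes kept by filterByExpr was compared in limma 3.58.1 with an empirical Bayes trend, under R 4.3.3, with Benjamini-Hochberg adjustment over all tested genes. The plan named edgeR quasi-likelihood only for raw counts, so limma was used. Dividing by the value of 1 read gave back whole reads for 100% of values within 0.1 read, and at an adjusted p under 0.05 edgeR 4.0.16 called 0 genes and DESeq2 1.42.0 called 1 on them. Transcripts are GENCODE M1 on NCBI37, and promoters RefSeq on GRCm38.p6. The limma and GC steps were tested on simulated data.

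Members and gene lists were chosen with earlier results of these data known. By rule, the named genes are Robo1, complex II, in each other complex the 2 highest and the lowest tested member per kb and the smallest limma p in each direction, isoform families, members that failed the filter, list genes with an unadjusted p under 0.05, and 8 regulators of mitochondrial biogenesis. Ndufa3, Ndufa7, Ndufb4, Ndufb7, Ndufb8, Ndufs7, Uqcr10, Uqcr11, Atp5c1, Atp5d, Atp5e, Atp5l, Atp5o, Cyc1 and the members named for copies elsewhere were chosen after their values were seen. So were Atp5sl, Yy1, and the GC and length classes. The same holds for 3 alternatives: GC correction without gh18, leaving out gh03 and gh06, and counts of non-overlapping members without gh18.

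With 3 libraries per genotype and wide spread in gh18, a difference of a subunit that passes no threshold is not shown to be absent. RNA was measured, and neither protein, assembled complexes nor respiration was. Each library pools animals, so variation between animals has no value. GC correction assumes that composition itself carries no effect of genotype, which was not tested. Levels per kb depend on 1 annotated transcript per gene.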

Additional observations from a re-analysis of the deposited data

How the results depend on the processing

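The Robo1 log2 fold change kept its sign and its side of both thresholds under every alternative that was run, between −1.71 (without gh03) and −1.20 (without gh06). The median log2 fold change of the tested members was below 0 under every alternative, from −0.33 (without gh06) to −0.04 (without gh18). It was −0.18 with TMM, −0.14 with upper-quartile factors, −0.11 after GC correction, −0.07 after GC and length correction, −0.05 after GC correction without gh18 and −0.20 without gh03 and gh06. The share of reads on members, Robo1-/- minus Robo1+/+, was −0.081 percentage points, −0.0827 with the 10 genes of most reads left out, and −0.108 (without gh15) to −0.0305 (without gh03) over single libraries.

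At an unadjusted p under 0.05, limma called 231 of the tested genes. The count was 415 with no filter on low values, where more genes were tested, and 552 after GC correction without gh18, an alternative chosen after seeing the data. Leaving out 1 library at a time gave 117 (without gh15) to 879 (without gh06), with 130 without gh03, 131 without gh12 and 579 without gh18. Members at that threshold numbered 0 under every alternative except without gh06, where there were 6, so the range over single libraries was 0 to 6. At an adjusted p under 0.05, DESeq2 called 1 gene (RP23-282C23.3), no member, and the other tools and alternatives called 0. For each of these counts the cause was not tested.

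Of 29 named members with a fold change, GC correction moved 7 by more than the spread between replicates and changed the sign of 9. GC and length correction moved 5 and changed 9 signs. Without gh18 8 signs changed, and after GC correction without gh18 7 did. The spread used here includes gh18, so it cannot judge the size of a move when gh18 is left out: Ndufa11 went from −1.94 to −0.32 and Atp5g1 from −1.45 to −0.37. Without gh03 and gh06 1 moved and 3 signs changed. Without gh03 4 signs changed. No sign of a called member changed, since limma called none. The size of some log2 fold changes depended on the tool. Ndufa11 was at −0.87 in edgeR and −0.88 in DESeq2, against −1.94 in limma. Atp5g1 was at −0.91 in both, against −1.45, and Uqcrq at −0.35 in both, against −0.62. In limma-voom these genes were at −1.83, −1.36 and −0.56.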
